A study of Mus musculus with 6 samples.

Results

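Canonical Wnt signalling switches on the genes that restrain or amplify it. Axin2, Lef1, Tcf7, Nkd1, Nkd2, Rnf43 and Znrf3 are such feedback genes, and they were described here together with the R-spondin receptors Lgr4, Lgr5 and Lgr6. The 10 genes were taken by symbol from the 23594 genes of the authors' table, and all 10 were found and passed edgeR's expression filter. RNA came from mandibular first molars of C57BL/6 mice 4.5 days after birth (PN4.5), where the apical tissue of the region in which the furcation forms (FDR) was cut out by laser capture. There were 3 libraries of wild-type control mice and 3 of Lhx6-/- mice, each made from several molars. According to the study's methods, the Lhx6-/- mice are homozygous for an Lhx6-CreER knock-in that abolishes the function of Lhx6, a LIM homeobox gene of the dental mesenchyme. Controls and Lhx6-/- mice were littermates. The study used male and female mice, but the sex of the animals in each pool is not given. Since the pools are not tied to single animals in the labels, p-values measure the spread between pools.

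In the absence of a Wnt ligand, Axin, APC and GSK3 mark beta-catenin for destruction. When Wnt binds Frizzled and Lrp5 or Lrp6, beta-catenin persists, enters the nucleus and acts with TCF/LEF factors on target genes. The ubiquitin ligases Rnf43 and Znrf3 remove Frizzled from the cell surface, and R-spondins bound to Lgr receptors remove these ligases in turn. In tooth roots, mesenchymal Wnt signalling takes part in odontoblast differentiation and root elongation.

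The promoters of 3 of the genes show what the DNA just before a start site holds. Axin2 is shown as the study's readout of the pathway, Nkd1 as the gene with the largest difference between the genotypes, and Lef1 as the gene with a TCF/LEF motif in its window. Each sequence is the 250 bases before a RefSeq start (GRCm38.p6), 5′ to 3′ on the plus strand, which is the strand of all 3 genes. Capitals mark the motif, a match to CTTTGTA read on the opposite strand. The positions are chr11:108920099-108920348 for Axin2, chr8:88527383-88527632 for Nkd1 and chr3:131156044-131156293 for Lef1.
Axin2: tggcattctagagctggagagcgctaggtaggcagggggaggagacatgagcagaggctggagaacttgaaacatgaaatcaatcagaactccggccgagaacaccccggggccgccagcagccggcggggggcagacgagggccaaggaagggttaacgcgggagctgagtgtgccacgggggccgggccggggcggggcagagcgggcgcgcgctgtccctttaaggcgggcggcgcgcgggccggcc
Nkd1: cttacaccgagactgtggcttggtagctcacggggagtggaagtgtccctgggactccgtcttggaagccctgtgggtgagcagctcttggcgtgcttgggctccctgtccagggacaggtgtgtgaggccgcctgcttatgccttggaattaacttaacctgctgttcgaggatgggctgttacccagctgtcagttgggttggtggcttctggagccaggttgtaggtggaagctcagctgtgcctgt
Lef1: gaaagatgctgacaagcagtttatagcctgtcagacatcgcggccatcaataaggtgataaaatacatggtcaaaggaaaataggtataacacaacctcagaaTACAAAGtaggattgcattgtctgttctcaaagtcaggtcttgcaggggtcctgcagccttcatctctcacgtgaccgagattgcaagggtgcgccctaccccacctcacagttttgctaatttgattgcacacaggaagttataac
The Axin2 sequence holds 69.2% G and C, the Nkd1 sequence 58.4% and the Lef1 sequence 44.8%. The Lef1 motif lies 147 to 141 bases before the start. That start is one of several of Lef1 and lies inside the gene's span in the authors' table, and the Nkd1 start is also downstream of the authors' gene start.

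Motifs were searched on both strands in windows from 250 bases before to 50 after each RefSeq start. The reference table gave 13 windows for 8 of the 10 genes, and Znrf3 and Lgr5 had none. The motif CTTTGAA stood in 5.14% of the 32851 windows of all genes. Its relatives share the first letters and end differently, with CTTTGAT found in 3.73% of all windows and CTTTGTA in 3.63%. The last of the 4 motifs, CTTTGTT, stood in 5.85% of them. At least 1 motif was held by 16.9% of all windows, and of the 13 windows here 1 held one, that of Lef1. The shorter core CTTTG stood in 53.9% of all windows and in 4 of the 13, all of Lef1. The median GC content was 63% in the 13 windows and 52.7% in all windows.

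The libraries held 60132323 to 76157433 estimated counts, and log2 levels of different libraries correlated across genes with Pearson's r of 0.963 to 0.980. Lhx6, the targeted gene, stood at 18.2 to 27.8 counts per 1000000 (CPM) in control and 9.82 to 12.8 CPM in Lhx6-/- libraries. Its log2 fold change was -1.04 (SE 0.16, adjusted p = 0.0210 from edgeR with Benjamini-Hochberg adjustment). Lhx6 RNA was thus at 48.8% of its control mean, reduced but not absent, and this level alone does not establish the label Lhx6-/-. For Lhx6 the adjusted p from edgeR exceeded 0.05 with a covariate for Y-linked genes (log2 fold change -0.58, adjusted p = 0.115) and without control replicate 3 (0.111), Lhx6-/- replicate 2 (0.110) or Lhx6-/- replicate 3 (0.0772). All 8 markers of dental mesenchyme were detected in every library, and so were all 12 of dental epithelium, while enamel genes held 11.5% to 14.6% of the counts. The tissue was thus a mixture, in which fewer cells of a type and less RNA per cell cannot be told apart. The epithelial markers summed to 1398 to 2210 CPM in control and 1005 to 1182 CPM in Lhx6-/- libraries, with 12 of 12 lower and 7 at an unadjusted p under 0.05. The 7 enamel genes, which are not among these 12 markers, gave sums that overlapped between the genotypes. They summed to 135550 to 145310 CPM in control and 114980 to 146340 CPM in Lhx6-/- libraries, with 6 lower, 1 higher and 1 at an unadjusted p under 0.05. Most of that sum was Amelx (means of 102430 and 94192 CPM). The gene under 0.05 was Amtn, lower without overlap (log2 fold change -0.54, adjusted p = 0.0210 from edgeR). The mesenchymal markers summed to 1278 to 1341 and 1446 to 1467 CPM, with 8 of 8 higher and 5 at an unadjusted p under 0.05. Most of that sum was Vim (means of 984 and 1072 CPM), and Msx1 and Barx1 overlapped, the other markers not. Odontoblast markers summed to 5286 to 5795 and 6443 to 7099 CPM, with 4 of 4 higher and 1 at an unadjusted p under 0.05. Most of that sum was Dspp (means of 4466 and 5606 CPM). Phex and Nes overlapped, and Dspp and Dmp1 did not. Of all tested genes, 9.81% had an unadjusted p under 0.05. The sums of endothelial markers (233 to 244 and 270 to 316 CPM, 6 of 6 higher) also did not overlap. Nor did those of blood markers (2960 to 3689 and 1590 to 2322 CPM, 5 of 5 lower). Y-linked genes summed to 14.6 to 58.0 CPM in control and 55.1 to 92.1 CPM in Lhx6-/- libraries. Xist stood at 792, 411 and 628 CPM in control and at 290, 0.228 and 0.0537 CPM in Lhx6-/- replicates 1, 2 and 3, without overlap.

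Among the 10 genes, Nkd1 was the one that differed most between the genotypes, at 72.3% of its control level in Lhx6-/- tissue. Axin2 and Lef1 had almost equal means in both genotypes, and the Lgr receptors overlapped between them. No gene of the 10 met the study's rule of a 1.5-fold change with an unadjusted p under 0.05, which 3.28% of the 20114 tested genes met. An unadjusted p under 0.05 was reached by 3 of the 10 genes (9.81% of all genes), with Nkd1 and Rnf43 lower (5.07% of all genes were called lower) and Tcf7 higher (4.75%). With Benjamini-Hochberg adjustment over all tested genes, 0 of the 10 passed 0.05 in edgeR (0.403% of all genes did), 0 in limma and 1, Nkd1, in DESeq2 (1.6% of the genes with an adjusted p there). The 3 genes were also those whose libraries did not overlap between the genotypes, which was true of 15.5% of all genes (7.68% lower and 7.86% higher). Of the 10, 6 were lower and 4 higher in Lhx6-/- libraries, beside 50.3% of all genes lower. Their median log2 fold change was -0.07, and that of all tested genes was -0.00.

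**Figure D1:**
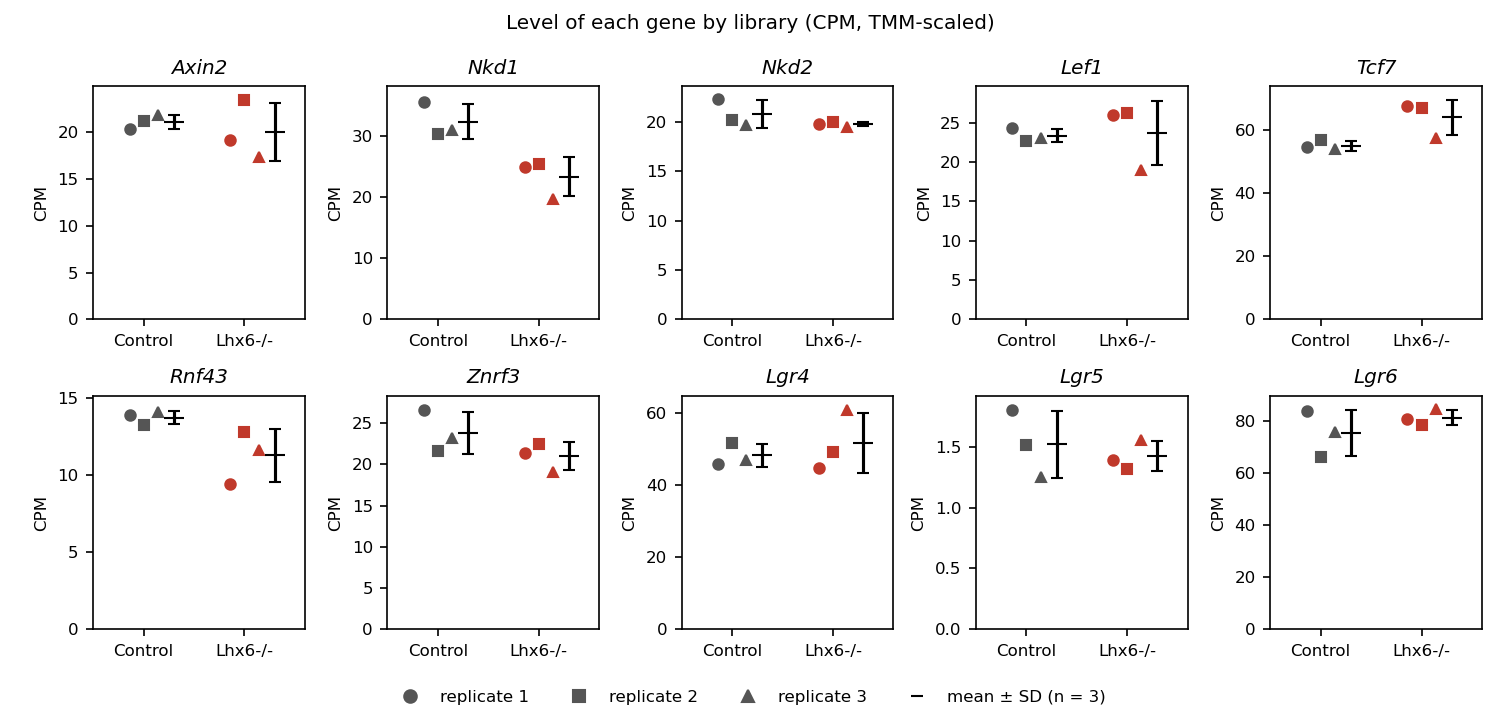
Levels of the 10 genes in each library, in CPM on linear axes that start at 0, with a point for each library, its shape giving the replicate, and the mean with its SD for each genotype. Nkd1 and Rnf43 lie lower in all 3 Lhx6-/- libraries than in any control library, Tcf7 lies higher, and the other 7 genes overlap.

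Axin2, a scaffold of the complex that destroys beta-catenin, is the usual transcriptional readout of the canonical pathway and was the study's choice for it. The study detected Axin2 RNA on tissue sections and quantified it at an older age than PN4.5. It reported lower Axin2 in the FDR of Lhx6-/- mice, especially in the middle apical area. The libraries here hold apical FDR tissue as a whole at PN4.5. Axin2 lies at chr11:108920349-108950783 (mm10, plus strand). Axin2 stood at 20.3, 21.1 and 21.8 CPM in control replicates 1, 2 and 3 and at 19.2, 23.4 and 17.3 CPM in Lhx6-/- replicates 1, 2 and 3. The Lhx6-/- libraries lay on both sides of the control range. The means were 21.1 ± 0.746 CPM in control and 19.98 ± 3.12 CPM in Lhx6-/- tissue (SD, n = 3 libraries each). The log2 fold change was -0.08 (SE 0.11, adjusted p = 0.897 from edgeR, Benjamini-Hochberg over all tested genes). Its 95% interval ran from -0.32 to 0.17, or from 0.801-fold to 1.12-fold, so it did not reach 1.5-fold in either direction. Without Lhx6-/- replicate 3 the log2 fold change was 0.02, and without Lhx6-/- replicate 2 it was -0.21. The coefficient of variation was 3.54% in control and 15.6% in Lhx6-/- libraries.

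Nkd1 and Nkd2 encode the Naked cuticle proteins, which bind Dishevelled and dampen the response of a cell to Wnt. Nkd1 lies at chr8:88521354-88594884 on the plus strand and Nkd2 at chr13:73818534-73847631 on the minus strand. Nkd1 stood at 35.5, 30.3 and 31.0 CPM in control replicates 1, 2 and 3 and at 24.9, 25.4 and 19.7 CPM in Lhx6-/- replicates 1, 2 and 3. Every Lhx6-/- library lay under every control library, with Lhx6-/- replicate 3 the lowest. Nkd1 averaged 32.3 ± 2.84 CPM in control and 23.3 ± 3.15 CPM in Lhx6-/- tissue (SD, n = 3 each). The log2 fold change was -0.47 (SE 0.11), with a 95% interval of 0.613-fold to 0.853-fold. In edgeR the unadjusted p was 0.00106 and the Benjamini-Hochberg adjusted p was 0.131, with a range of 0.0144 to 0.355 over 19 alternative fits. The lowest of these was from DESeq2, which gave the same log2 fold change. Over those fits the log2 fold change ran from -0.60 to -0.33, and the unadjusted p was under 0.05 in 18 of 19. Leaving out single libraries moved it between -0.53 and -0.36.

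Nkd2 gave a different picture. It stood at 22.4, 20.3 and 19.7 CPM in control and at 19.8, 19.98 and 19.6 CPM in Lhx6-/- replicates 1, 2 and 3. These values overlapped, with the 3 Lhx6-/- libraries within a narrow range. For Nkd2 the log2 fold change was -0.07 (SE 0.09, adjusted p = 0.878 from edgeR with Benjamini-Hochberg adjustment). Taken within each library, the ratio of Nkd1 to Nkd2 counts was 1.59, 1.496 and 1.57 in control and 1.25, 1.27 and 1.01 in Lhx6-/- libraries, without overlap. The means were 1.55 ± 0.0495 and 1.18 ± 0.148 (SD, n = 3 each), a log2 difference of -0.41. An exact two-sided permutation test gave p = 0.1, the smallest that 3 libraries against 3 allow, and 0.2 after Benjamini-Hochberg adjustment over the 6 ratios computed. The ratio of Nkd1 to Axin2 was 1.75, 1.43 and 1.42 in control and 1.30, 1.09 and 1.14 in Lhx6-/- libraries. Its log2 difference was -0.39 (exact permutation p = 0.1, and 0.2 after Benjamini-Hochberg adjustment). Both ratios use the same Nkd1 counts, so they are not separate evidence.

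**Figure D2:**
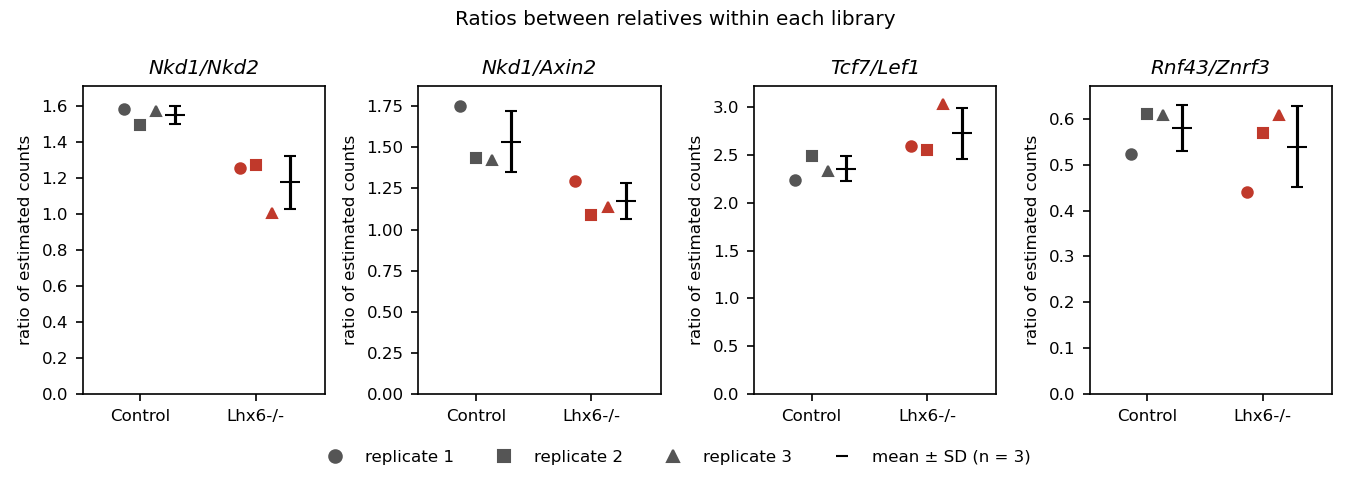
Ratios of the estimated counts of paired genes within each library, on linear axes that start at 0, with a point for each library, its shape giving the replicate, and the mean with its SD for each genotype. The ratios of Nkd1 to Nkd2 and to Axin2 are lower in every Lhx6-/- library, that of Tcf7 to Lef1 is higher, and that of Rnf43 to Znrf3 overlaps.

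Lef1 and Tcf7 encode TCF/LEF factors, the DNA-binding partners of beta-catenin, and both genes are also targets of the pathway. Tcf7 lies at chr11:52252371-52283331 on the minus strand. Its upper position, where the gene begins on that strand, differs from that in GENCODE M21 (52283014). Tcf7 stood at 54.5, 56.8 and 53.9 CPM in control and at 67.5, 67.1 and 57.6 CPM in Lhx6-/- replicates 1, 2 and 3. All 3 Lhx6-/- libraries lay above the control libraries, replicate 3 by the smallest margin. The means were 55.1 ± 1.56 and 64.1 ± 5.57 CPM (SD, n = 3 each), and the log2 fold change was 0.22 (SE 0.08), with a 95% interval of 1.03-fold to 1.31-fold. The unadjusted p from edgeR was 0.0157 and the adjusted p was 0.355. Over the 19 alternatives the log2 fold change of Tcf7 ran from 0.18 to 0.29 and its unadjusted p was under 0.05 in 14, but not with the epithelial or the Y-linked covariate or without control replicate 3, Lhx6-/- replicate 1 or Lhx6-/- replicate 2 (log2 fold changes of 0.25, 0.20, 0.20, 0.18 and 0.19).

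Lef1 lies at chr3:131110471-131224356 on the plus strand. It stood at 24.3, 22.8 and 23.0 CPM in control and at 26.0, 26.3 and 19.0 CPM in Lhx6-/- replicates 1, 2 and 3. Lhx6-/- replicates 1 and 2 lay above the control range and replicate 3 below it. The log2 fold change was 0.02 (SE 0.12, adjusted p = 0.979 from edgeR with Benjamini-Hochberg adjustment), and it was -0.04 and -0.06 without Lhx6-/- replicates 1 and 2 and 0.16 without replicate 3. The ratio of Tcf7 to Lef1 counts was 2.24, 2.50 and 2.34 in control and 2.6001, 2.55 and 3.03 in Lhx6-/- libraries, without overlap. Its log2 difference was 0.21 (exact permutation p = 0.1, and 0.2 after Benjamini-Hochberg adjustment).

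Rnf43 and Znrf3 encode the transmembrane ligases that remove Frizzled receptors. Rnf43 lies at chr11:87662722-87735539 on the plus strand and Znrf3 at chr11:5276324-5444847 on the minus strand. Rnf43 stood at 13.9, 13.2 and 14.1 CPM in control and at 9.43, 12.8 and 11.6 CPM in Lhx6-/- replicates 1, 2 and 3. The genotypes did not overlap, but Lhx6-/- replicate 2 lay close to the lowest control library. The means of Rnf43 were 13.7 ± 0.445 and 11.3 ± 1.71 CPM (SD, n = 3 each), and the log2 fold change was -0.28 (SE 0.13), with a 95% interval of 0.680-fold to 0.992-fold. The unadjusted p from edgeR was 0.0426 and the adjusted p was 0.488. Across the 19 alternatives the log2 fold change of Rnf43 lay between -0.38 and -0.17, with an unadjusted p under 0.05 in 11. That p was above 0.05 without control replicate 1 (log2 fold change -0.27), control replicate 3 (-0.26), Lhx6-/- replicate 1 (-0.17) or Lhx6-/- replicate 3 (-0.30). It was also above 0.05 with total-count scaling (-0.27), with limma voom (-0.27) and with either covariate.

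Znrf3 stood at 26.6, 21.7 and 23.2 CPM in control and at 21.4, 22.5 and 19.1 CPM in Lhx6-/- replicates 1, 2 and 3, and the genotypes overlapped. Its log2 fold change was -0.18 (SE 0.10, adjusted p = 0.630 from edgeR with Benjamini-Hochberg adjustment). It was -0.09 without control replicate 1 and -0.24 without control replicate 2, where the unadjusted p from edgeR was 0.0418, and -0.01 with the Y-linked covariate. The ratio of Rnf43 to Znrf3 counts averaged 0.580 in control and 0.539 in Lhx6-/- libraries (exact permutation p = 0.6), with overlap. The direction of both ligases was thus the same, and their difference from each other was within the spread of the libraries.

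Lgr4, Lgr5 and Lgr6 encode receptors of the R-spondins, and Lgr5 is both a Wnt target and a marker of stem cells in several epithelia. They lie at chr2:109917647-110014257 on the plus strand, chr10:115450311-115587780 on the minus strand and chr1:134983301-135105276 on the minus strand. Lgr4 stood at 46.0, 51.9 and 47.0 CPM in control and at 44.8, 49.3 and 60.9 CPM in Lhx6-/- replicates 1, 2 and 3, replicate 3 being the highest of all. Lgr4 had a log2 fold change of 0.10 (SE 0.11, adjusted p = 0.849 from edgeR with Benjamini-Hochberg adjustment), and it was -0.04 without Lhx6-/- replicate 3. Lgr6 stood at 83.9, 66.2 and 75.8 CPM in control and at 80.8, 78.6 and 84.4 CPM in Lhx6-/- replicates 1, 2 and 3. The control libraries of Lgr6 spread more widely than the Lhx6-/- libraries, whose lowest values lay within the control range. Lgr6 had a log2 fold change of 0.11 (SE 0.09, adjusted p = 0.758 from edgeR). It was 0.03 without control replicate 2 and 0.20 without control replicate 1, where the unadjusted p from edgeR was 0.0375.

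Lgr5 was the least abundant of the 10 genes, with 74 to 116 estimated counts per library. It stood at 1.80, 1.51 and 1.25 CPM in control and at 1.39, 1.32 and 1.56 CPM in Lhx6-/- replicates 1, 2 and 3. The Lhx6-/- values lay inside the control range. The log2 fold change was -0.10 (SE 0.28, adjusted p = 0.956 from edgeR), and it was 0.04 without control replicate 1. Its 95% interval, from 0.608-fold to 1.44-fold, was the widest of the 10 and reached past 1.5-fold on the lower side. The ratio of Lgr6 to Lgr4 counts averaged 1.57 in control and 1.59 in Lhx6-/- libraries (exact permutation p = 1), and that of Lgr5 to Lgr4 0.0316 and 0.0278 (exact permutation p = 0.6).

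**Figure D3:**
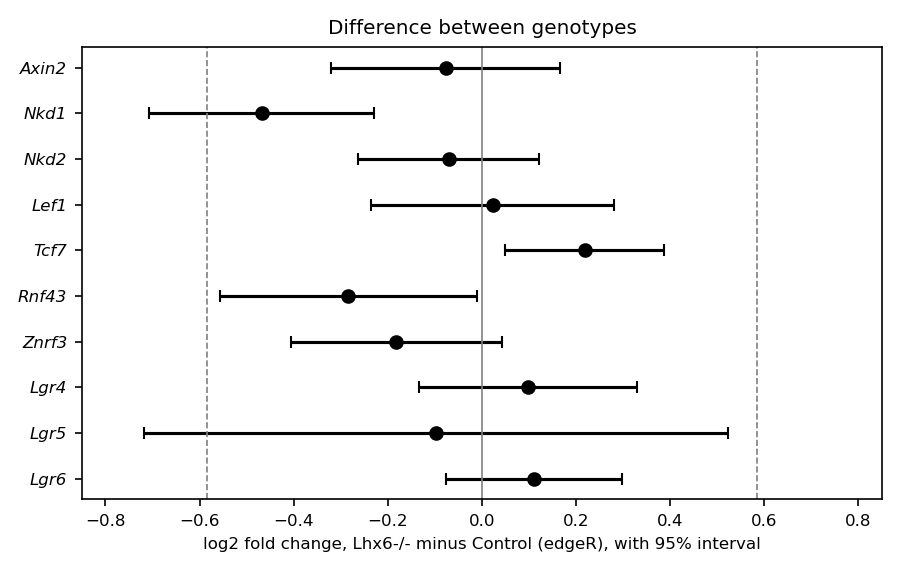
Log2 fold changes of the 10 genes, Lhx6-/- minus control, from edgeR (points) with 95% intervals (bars), beside the study's 1.5-fold limits (dashed lines). The intervals of Nkd1, Rnf43 and Tcf7 exclude 0, and 8 of the 10 intervals lie wholly inside the limits, the exceptions being Nkd1 and Lgr5.

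For 8 of the 10 genes the 95% interval lay inside 1.5-fold on both sides. The lower bounds of Nkd1, at 0.613-fold, and of Lgr5, at 0.608-fold, lay beyond it. Lhx6-/- replicate 3 was the lowest of the 6 libraries in 5 of the 10 genes (Axin2, Nkd1, Nkd2, Lef1 and Znrf3) and the highest in 2 (Lgr4 and Lgr6). Over all tested genes it was the lowest in 13.4% and the highest in 13.5%. In 6 of the 10 genes the coefficient of variation was larger in Lhx6-/- than in control libraries, as it was for 42.6% of all tested genes. These counts over the 10 genes are descriptions, since they come from the same 6 libraries.

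Divided by the summed length of each gene's exons, the levels could be ordered within the tissue. In control libraries Tcf7 led at 21.0 ± 0.594 CPM per kilobase (SD, n = 3). Lgr6 followed at 11.0 ± 1.29, Lgr4 at 8.21 ± 0.531 and Nkd1 at 7.08 ± 0.623 CPM per kilobase. Nkd2 had 4.30 ± 0.294, Axin2 3.83 ± 0.135, Znrf3 3.02 ± 0.320, Lef1 2.66 ± 0.0952 and Rnf43 2.10 ± 0.0678 CPM per kilobase. Lgr5 closed the order at 0.148 ± 0.0267 CPM per kilobase. Neighbours in this order did not overlap between libraries, except Znrf3 and Lef1. In Lhx6-/- libraries the order was the same but for Lef1 (2.70) and Znrf3 (2.66 CPM per kilobase), which exchanged places and overlapped, and Nkd2 and Axin2 overlapped too. The length counts every annotated exon, so genes with long exons that are not used stand too low in this order. For Tcf7 the length came from a gene span that is shorter than that of the authors' table, so Tcf7 could stand too high.

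**Figure D4:**
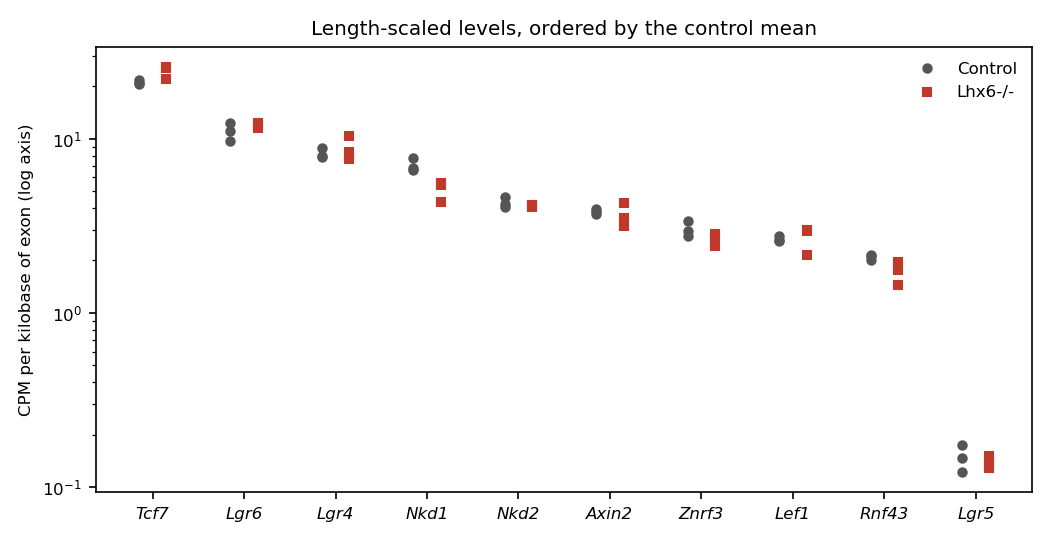
CPM per kilobase of exon for each of the 10 genes on a log axis, with a point for each control and each Lhx6-/- library. Tcf7 stands highest, at means of 21.0 and 24.4 CPM per kilobase, and Lgr5 lowest, at 0.148 and 0.139, in both genotypes.

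The differences were also fitted with the epithelial markers or the Y-linked genes as a covariate, the first because its sums did not overlap between the genotypes. The Y-linked sums overlapped, with 4 of 4 genes higher in mean in Lhx6-/- libraries and 1, Kdm5d, at an unadjusted p under 0.05. Xist did not overlap (an unadjusted p of 0.361 from edgeR). It stood at 0.228 and 0.0537 CPM in Lhx6-/- replicates 2 and 3, where the lowest control library held 411 CPM. By these values the mix of sexes was not the same in the 2 genotypes. No fit used Xist as a covariate. With the mean level of the 12 epithelial markers in the fit, Nkd1 had a log2 fold change of -0.60 (adjusted p = 0.247 from edgeR, unadjusted p of 0.00203) and was then the only one of the 10 to meet the 1.5-fold rule. In that fit Rnf43 was at -0.23 (an unadjusted p of 0.249 from edgeR) and Tcf7 at 0.25 (an unadjusted p of 0.0506), while Znrf3 reached an unadjusted p of 0.0363 in edgeR at -0.34. Axin2 was at -0.01 with this covariate. With the Y-linked genes in the fit, Nkd1 was at -0.33 (an unadjusted p of 0.0657 from edgeR), Tcf7 at 0.20 and Rnf43 at -0.33, all above 0.05, and Lgr6 was at 0.33 with an unadjusted p of 0.0117 and an adjusted p of 0.155 from edgeR. Lef1 (-0.06) and Lgr6 (-0.09) changed sign with the epithelial covariate and Lgr4 (-0.12) with the Y-linked one. The directions of Nkd1, Rnf43 and Tcf7 were the same in every fit, but the parts of cell mixture and sex in these differences cannot be told apart from genotype in 6 libraries. The parts of the mesenchymal, odontoblast, endothelial and blood markers were not tested.

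**Figure D5:**
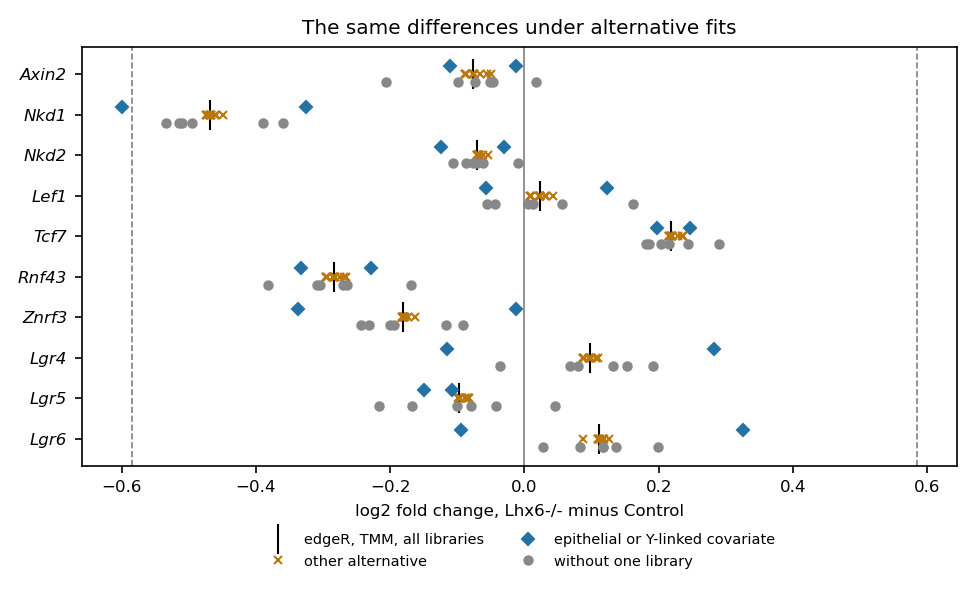
Log2 fold changes of the 10 genes, Lhx6-/- minus control, in the edgeR fit of all libraries (vertical bars) and in 19 alternatives (crosses, grey circles for fits without one library, diamonds for fits with a covariate), beside the 1.5-fold limits (dashed lines). Nkd1 and Rnf43 stay below 0 and Tcf7 above 0 in every fit, whereas Axin2, Lef1, Lgr4, Lgr5 and Lgr6 cross 0 in at least 1.

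R-spondins, the ligands of the Lgr receptors, were all detected. Rspo1 stood at 11.7, 10.7 and 10.4 CPM in control and at 13.1, 13.5 and 13.5 CPM in Lhx6-/- replicates 1, 2 and 3, without overlap. Its log2 fold change was 0.29 (SE 0.11, adjusted p = 0.374 from edgeR, an unadjusted p of 0.0180). Rspo4, the most abundant of the 4 in CPM, averaged 19.7 ± 2.03 CPM in control and 21.8 ± 2.03 CPM in Lhx6-/- tissue (SD, n = 3 each), a log2 fold change of 0.15. Rspo2 averaged 3.81 ± 1.40 and 5.33 ± 1.68 CPM (log2 fold change 0.49, adjusted p = 0.706 from edgeR) and Rspo3 2.96 ± 0.615 and 3.13 ± 0.769 CPM (0.08), each with overlap (SD, n = 3 each). Summed over the 4 ligands, control libraries held 35.3 to 41.2 CPM and Lhx6-/- libraries 42.8 to 44.7 CPM.

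Further along the pathway, 56 other genes were tested, including the R-spondins. Of these, 1 met the 1.5-fold rule (3.28% of all tested genes did) and also had an adjusted p under 0.05 in edgeR (0.403% of all tested genes). That gene was Notum, a secreted enzyme that inactivates Wnt ligands and is itself a Wnt target. It stood at 18.5, 13.5 and 19.0 CPM in control and at 8.95, 9.12 and 9.12 CPM in Lhx6-/- replicates 1, 2 and 3, without overlap. Notum had a log2 fold change of -0.90 (SE 0.13, adjusted p = 0.0145 from edgeR with Benjamini-Hochberg adjustment), a larger difference than that of any of the 10 genes. It was -0.51 with the Y-linked covariate, and the adjusted p exceeded 0.05 in 4 of the 19 alternatives, with that covariate (0.151) and without control replicate 3 (0.115), Lhx6-/- replicate 1 (0.0836) or Lhx6-/- replicate 2 (0.0967), all in edgeR. Of the 11 further Wnt targets, Notum included, 7 were lower and 4 higher, with a median log2 fold change of -0.10.

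In the rest of the pathway no gene met the 1.5-fold rule. Of the 12 Frizzleds and co-receptors, 7 were higher and 5 lower (median log2 fold change 0.10). At an unadjusted p under 0.05 Fzd1 (0.35), Fzd2 (0.29) and Lrp6 (0.21) were higher and Fzd10 (-0.38) was lower. Among the 15 genes of the destruction complex and its regulators, 9 were higher and 6 lower, with a median of 0.01 and 0 at an unadjusted p under 0.05 in edgeR. The 14 nuclear partners of beta-catenin had 9 higher and 5 lower, with a median of 0.03 and 1 gene, Tle1 (0.22), at an unadjusted p under 0.05. Wif1 (0.17), a secreted inhibitor, was the other gene of the Wnt targets below that threshold besides Notum. In all, 8 of the 56 genes had an unadjusted p under 0.05, 6 higher and 2 lower, where 9.81% of all tested genes had one (4.75% higher and 5.07% lower). Apart from Notum and the R-spondins, the genes of this pathway were named after their values had been seen.

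Several of the 10 genes overlap other annotated genes, and the sources used here do not say whether the counting used strand. Tcf7 shares its locus with the antisense gene A630014C17Rik, which stood at 1.98 CPM in control and 1.94 CPM in Lhx6-/- tissue. Lef1 shares it with Gm42449, on the same strand, at 0.129 and 0.169 CPM. Axin2, Nkd1, Nkd2, Rnf43 and Lgr5 overlap annotated genes that were not tested, while Znrf3, Lgr4 and Lgr6 overlap none. Reads that fall in a shared stretch could have been split between both genes.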

How the data were processed

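RNA of 3 control and 3 Lhx6-/- libraries was sequenced as single-end reads. According to the study's methods and the submitters' processing notes, the authors aligned trimmed reads to mm10 with STAR 2.6.1d in Partek and deposited estimated counts per gene without normalization, in which each of the 23594 genes reaches 10 in some library. The counter, its annotation and strand setting are not given in the sources used here. A second deposited table holds the authors' comparison (ratios, fold changes, p-values and means), of which only gene names, positions and, for a test of the gene order (largest relative deviation 5.11e-08), the means were used. The summed estimated counts were 79.96% to 85.19% of the per-library total behind those means.

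The 10 genes and all lists were chosen with earlier results of these data known. The estimated counts were rounded and fitted for genotype with edgeR 4.0.16 in R 4.3.3 (quasi-likelihood test, robust, two-sided, TMM factors of 0.978 to 1.04, default expression filter, 20114 genes tested, Benjamini-Hochberg adjustment over all of them). The biological coefficient of variation was 0.202. CPM are per 1000000 TMM-scaled counts, and CPM per kilobase use the union of GENCODE M21 exons. Intervals of 95% come from the SE, computed from F, and the moderated degrees of freedom. Ratios were tested by exact permutation with scipy 1.17.1. The code was tested on simulated counts. Alternatives were other scalings and filters, non-robust dispersion, DESeq2 1.42.0, limma 3.58.1 (limma-trend with prior counts of 2 and 0.5, voom), a replicate block, 2 covariates and leaving out each library. By rule the text names the 10 genes, Lhx6, pathway genes that met the 1.5-fold rule or an adjusted p under 0.05, and the R-spondins, and other names were chosen after their values were seen. Positions are those of the authors' table, 1-based. The lower position is that of GENCODE M21 for all 10 genes and the upper one for 9, Tcf7 being the exception. Promoter sequences are from RefSeq. Lhx6-/- libraries carry the numbers of the sample titles, which differ from those in the table's row names.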

Additional observations from a re-analysis of the deposited data

How the results depend on the processing

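Of the 10 genes, Nkd1, Nkd2, Rnf43, Znrf3 and Tcf7 kept their direction in all 19 alternative fits. The number meeting the 1.5-fold rule was 0 except with the epithelial covariate (1, Nkd1), and it was 3 with no fold minimum and 0 at 2-fold. The number with an adjusted p under 0.05 was 0 except in DESeq2 (1, Nkd1, -0.47). The number lower in Lhx6-/- libraries was 5 to 8, and the number with an unadjusted p under 0.05 was 1 to 4, being 1 with the Y-linked covariate (Lgr6) and without control replicate 3 or Lhx6-/- replicate 1 (Nkd1), and 4 without control replicate 2. Single libraries left out in turn moved the median log2 fold change of the 10 genes between -0.080 and 0.017, the latter without control replicate 1, and that of Axin2 between -0.206 and 0.017, the latter without Lhx6-/- replicate 3. The epithelial covariate reversed Lef1 (-0.058) and Lgr6 (-0.095), and the Y-linked covariate reversed Lgr4 (-0.12). Leaving out single libraries reversed Lef1 (range -0.056 to 0.161), Lgr4 (-0.036 to 0.192) and Lgr5 (-0.217 to 0.045). Other pathway genes under the rule numbered 2 with limma voom (Notum and Sp5), 4 with the Y-linked covariate (Apc2, Apcdd1, Rspo2 and Tle2, named after their values were seen) and 1 to 2 without single libraries, 2 being reached without control replicate 1 or Lhx6-/- replicate 3. The cause of these changes was not tested. Deviations of same-numbered libraries from their group means correlated at -0.0314 to 0.0256, and those of the other combinations at -0.0639 to 0.0951. The study's methods mention 3 pairs of samples, but the labels do not say which libraries form a pair. These correlations therefore do not tell whether the libraries were paired. With a block by replicate number the log2 fold change of Axin2 was -0.09 and that of Nkd1 -0.47 (adjusted p = 0.0673 from edgeR). In that fit 0 of the 10 genes met the rule. With 3 libraries a group, the parts of counting and of spread between pools in the precision were not separated. Lgr5 had the lowest counts of the 10 genes, 74 to 116 per library.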

Other observations

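Markers of the remaining cell types overlapped between the genotypes. Summed levels in control and Lhx6-/- libraries were 5418 to 5472 and 4918 to 5791 CPM for osteoblast markers and 1011 to 1072 and 959 to 1070 CPM for periodontal ligament and follicle markers. They were 274 to 283 and 254 to 289 CPM for immune markers, and 153 to 415 and 163 to 394 CPM for markers of nerve and glia.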
